A study of Mus musculus with 6 samples.

Results

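The 10 genes described here encode the transcriptional co-activators YAP (Yap1) and TAZ (Wwtr1), 3 of their DNA-binding partners of the TEAD family (Tead1, Tead3, Tead4), and 5 genes widely used as readouts of their activity (Ctgf, Cyr61, Ankrd1, Amotl2, Nt5e). They were chosen by gene symbol, and all 10 were present among the 23345 genes of the deposited expression table. Messenger RNA was measured in lung endothelial cells of C57BL/6JOlaHsd mice fed a high-fat diet (HFD; mice 2, 4 and 5) or a normal diet (ND; mice 1, 3 and 4) for 12 weeks. Each library came from 500 cells of a separately numbered mouse, and the cells had been in culture: after attachment to coated plates, those bearing CD16/CD32 were removed, ICAM-2-bearing cells were kept with magnetic beads, and these were plated on collagen I until RNA extraction.

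YAP and TAZ carry no DNA-binding domain of their own and act by binding TEAD proteins at their target genes. The Hippo kinases, MST and then LATS, phosphorylate YAP and TAZ and hold them in the cytoplasm, whereas a stiff matrix, cell spreading and disturbed blood flow favour their entry into the nucleus. In endothelium the pathway is known for its part in vessel sprouting, barrier formation and the response to flow. Transcript levels record the amount of each mRNA and not the phosphorylation or location of the proteins.

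The promoters of 4 of the targets are shown because TEAD proteins carry YAP and TAZ to such control regions. The letters GGAATG, a core of the TEAD binding motif, were searched on both strands in the 250 bases before RefSeq transcription starts (GRCm38.p6). Ctgf, Tead1 and Tead4 matched no RefSeq promoter and are not covered by this search. The other 7 of the 10 members did, with 10 windows between them. The letters stood in 8 of these 10 windows and in windows of 6 of the 7 genes, against 12.6% of all 32851 promoter windows of the same length and 14.4% of the 27025 genes they belong to. Windows of one gene can overlap, and both Wwtr1 windows hold the same match, so these are not 8 separate sites. The AP-1 motif TGANTCA, searched likewise, stood in 0 of the 10 windows, against 6.75% of all windows. In the annotation GENCODE M21 the genes Ankrd1, Amotl2 and Nt5e begin upstream of the windows shown, and the bases before those starts were not searched. Capitals mark GGAATG or its reverse complement CATTCC in the following 250-base windows, which end at the base before the RefSeq transcription start.
Cyr61 (chr3:145649986-145650235, minus strand): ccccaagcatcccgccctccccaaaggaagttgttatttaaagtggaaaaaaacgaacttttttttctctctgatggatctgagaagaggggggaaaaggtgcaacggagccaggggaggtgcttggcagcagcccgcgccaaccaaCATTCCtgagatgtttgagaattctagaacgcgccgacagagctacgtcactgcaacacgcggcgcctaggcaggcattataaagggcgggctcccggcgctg
Ankrd1 (chr19:36119845-36120094, minus strand): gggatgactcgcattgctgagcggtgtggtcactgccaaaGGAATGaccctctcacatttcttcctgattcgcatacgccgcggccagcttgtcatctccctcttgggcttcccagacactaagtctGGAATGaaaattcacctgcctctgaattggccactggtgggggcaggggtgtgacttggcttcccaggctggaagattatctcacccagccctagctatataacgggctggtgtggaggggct
Amotl2 (chr9:102717554-102717803, plus strand): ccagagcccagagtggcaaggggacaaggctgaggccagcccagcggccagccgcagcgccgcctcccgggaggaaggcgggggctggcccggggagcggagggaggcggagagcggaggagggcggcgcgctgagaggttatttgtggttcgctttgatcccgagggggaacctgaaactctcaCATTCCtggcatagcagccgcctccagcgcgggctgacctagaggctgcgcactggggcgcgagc
Nt5e (chr9:88327359-88327608, plus strand): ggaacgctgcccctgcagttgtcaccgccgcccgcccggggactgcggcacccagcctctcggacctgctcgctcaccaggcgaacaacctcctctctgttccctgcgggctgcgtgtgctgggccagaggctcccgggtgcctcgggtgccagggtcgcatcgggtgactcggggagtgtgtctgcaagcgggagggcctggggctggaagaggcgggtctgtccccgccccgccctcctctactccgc
The match began 103 bases before the start in Cyr61, 210 and 123 bases before it in Ankrd1, and 65 bases before it in Amotl2. The Nt5e window held none, which says only that these letters are absent from this stretch.

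The values are normalized counts, that is, reads per gene scaled by one size factor per library. The libraries held 18808208 to 27896648 reads in HFD and 13752860 to 17194899 in ND, so every HFD library was deeper. The endothelial label was checked with 10 markers, among them Pecam1, Cdh5, Tek and Icam2, whose summed normalized counts were 139449 to 162153 in HFD and 118590 to 147133 in ND. Icam2 encodes the surface protein by which the cells were kept, so it is no separate check. ND 3 stood apart, with 103698 summed normalized counts of 12 lung epithelial markers, of which 70918 belonged to the surfactant gene Sftpc, against 4393 to 18668 in the other 5 libraries. It also held 6574 summed normalized counts of 6 leukocyte markers, of which 6388 belonged to Lyz2, against 159 to 225 in the others. The other leukocyte markers were uneven. Csf1r had 128 normalized counts in ND 3, against 1.18 to 26.1 in the others, and Ptprc had 17.1, against 11.8 to 14.5. For Cd68, Cd79a and Cd3e the ND 3 value lay within the range of the others. The members' fold changes are therefore also given without ND 3.

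The main comparison asked whether the transcripts of this pathway differed between HFD and ND mice. Its co-activator and partner genes gave uneven values: for Wwtr1, Tead1 and the target Ctgf every HFD value was below every ND value, and for Tead4 every HFD value was above them. By mean level, Ctgf stood at 0.117 of its ND value in HFD, Tead1 at 0.332, Wwtr1 at 0.441 and Tead4 at 1.51. The diets overlapped for the other 4 targets, of which Nt5e and Amotl2 had lower means in HFD and Cyr61 and Ankrd1 higher ones. None of the 10 passed the test over all genes.

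**Figure D1:**
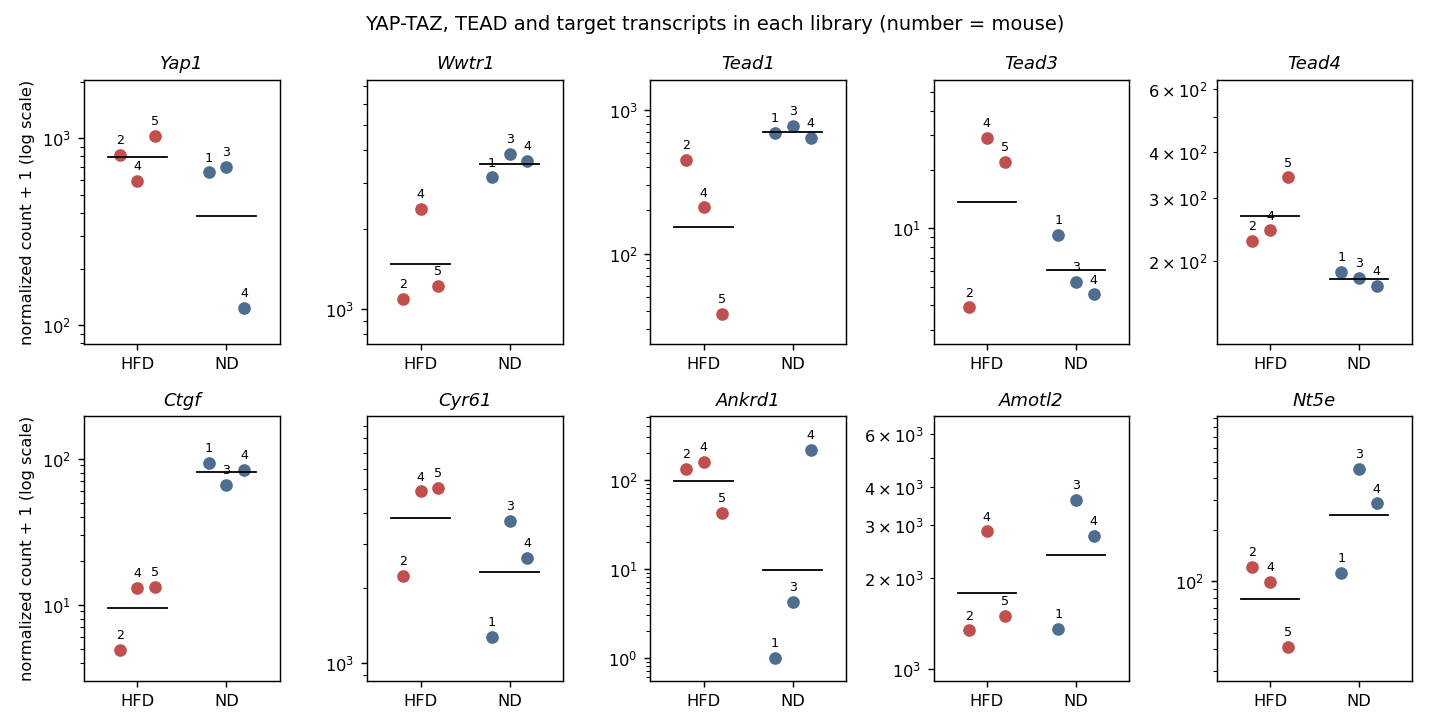
Normalized count plus 1 (log scale) of each of the 10 genes in the 3 HFD libraries (red, left) and 3 ND libraries (blue, right); numbers are mice and the line is the geometric mean. Wwtr1, Tead1, Ctgf and Tead4 separate the diets, and the other 6 overlap.

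The test was limma on log2(normalized count + 1) over the 15655 genes whose mean normalized count reached 10, adjusted by the Benjamini-Hochberg method. It called 0 of the 10 members at an adjusted p of 0.05, against 0.0% of all tested genes. At an unadjusted p under 0.05 there were 3 members lower in HFD and 0 higher, where 2.36% of all tested genes were lower, 5.56% higher and 7.92% either. Of the 10, 5 had a fold change above 0, as did 52.8% of tested genes. edgeR and limma-voom on whole reads called 0 members, as they did 0.0% of all genes. At an unadjusted p under 0.05 edgeR had 2 members, against 9.34% of all genes, and limma-voom had 3, against 8.37%. DESeq2 also called 0 members, with 4 at that level, against 10.4% of all genes, and a smallest adjusted p of 0.0672 for Wwtr1, while it called 2.01% of all tested genes. The diets did not overlap for 4 of the 10 members, 3 lower and 1 higher, against 5.93% of tested genes lower, 8.12% higher and 14.1% in either direction. The same 4 genes made up this count without ND 3, when 25.7% of all tested genes did not overlap. The count was 7 without HFD 2, when Tead3, Cyr61 and Nt5e joined and 25.1% of all tested genes did not overlap.

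Wwtr1, which encodes TAZ, had 1091, 2398 and 1218 normalized counts in HFD 2, HFD 4 and HFD 5, against 3154, 3869 and 3643 in ND 1, ND 3 and ND 4. The ND values lay close together, and the highest HFD value stayed below the lowest of them. The means were 1569 ± 721 in HFD and 3556 ± 365 in ND (SD, n = 3 each), and the log2 fold change was −1.27 ± 0.35 (SE, limma adjusted p = 0.497). It was −1.20 without ND 3 and ranged from −1.62 to −1.05 when each library was left out in turn. Wwtr1 lies on the minus strand of chromosome 3 from 57455649 to 57575910 (GRCm38, GENCODE M21).

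Yap1 had 815, 589 and 1028 normalized counts in HFD 2, HFD 4 and HFD 5, against 657, 705 and 122 in ND 1, ND 3 and ND 4. The diets overlapped, and the single low value was that of ND 4. The log2 fold change was 1.04 ± 0.72 (limma adjusted p = 0.747), and it was 0.22 without ND 4 and 1.47 without ND 3. Yap1 and Wwtr1 therefore differed in direction, although neither passed the test. Per kilobase of merged exons, which allows levels of different genes to be compared, Wwtr1 was above Yap1 in every library. The ratio of Wwtr1 to Yap1 per kilobase was 2.60, 7.88 and 2.30 in HFD 2, HFD 4 and HFD 5, against 9.31, 10.6 and 57.7 in ND 1, ND 3 and ND 4. The summed level of both per kilobase was 316, 565 and 366 in these HFD libraries, against 731, 886 and 776 in the ND libraries. This sum and ratio were chosen after the values were seen and were not tested.

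Among the TEAD factors, Tead1 had 447, 209 and 37.4 normalized counts in HFD 2, HFD 4 and HFD 5, against 686, 769 and 631 in ND 1, ND 3 and ND 4. All HFD values were below all ND values, and the HFD mice differed among themselves more than 10-fold. The log2 standard deviation was 1.81 within HFD and 0.14 within ND. The log2 fold change was −2.18 ± 0.87 (limma adjusted p = 0.593), or −1.18 without HFD 5 and −2.10 without ND 3. Tead1 lies on chromosome 7 from 112679318 to 112906807.

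Tead4 had 226, 242 and 340 normalized counts in HFD 2, HFD 4 and HFD 5, against 185, 179 and 170 in ND 1, ND 3 and ND 4. The diets did not overlap, and the ND values were the most even of any member, with a log2 standard deviation of 0.063. The log2 fold change was 0.57 ± 0.45 (limma adjusted p = 0.775) and was 0.40 without HFD 5 and 0.58 without ND 3. Tead2, a further family member that is not one of the 10, had 180, 316 and 374 normalized counts in HFD 2, HFD 4 and HFD 5, against 104, 172 and 78.4 in ND 1, ND 3 and ND 4. Its diets did not overlap either, and its log2 fold change was 1.30 ± 0.57 (limma adjusted p = 0.638). Tead3 was near the detection limit, with 3 to 35 reads per library, and its normalized counts were 2.91, 28.2 and 20.9 in HFD 2, HFD 4 and HFD 5 against 8.27, 4.28 and 3.56 in ND 1, ND 3 and ND 4. Its diets overlapped through HFD 2, and its log2 fold change was 1.16 ± 1.13 (limma adjusted p = 0.828), or 2.06 without HFD 2, 0.61 without HFD 4 and 1.06 without ND 3.

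The make-up of the TEAD family differed accordingly. Of the summed per-kilobase level of Tead1 to Tead4, Tead1 held 24.6%, 10.04% and 1.55% in HFD 2, HFD 4 and HFD 5, against 40.4%, 39.7% and 42.0% in ND 1, ND 3 and ND 4. Tead2 held 28.1% to 43.8% in HFD and 14.8% to 25.2% in ND, and Tead4 held 44.0% to 52.9% in HFD and 34.7% to 42.7% in ND. The summed level itself was 134 to 179 per kilobase in HFD and 111 to 143 in ND, with overlap between the diets. These shares were not tested, and they depend on the merged exon lengths, the longest of which is that of Tead1 at 13.57 kb against 3.598 kb for Tead4. They restate the Tead1, Tead2 and Tead4 values as parts of a whole, so a lower Tead1 share raises the others.

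**Figure D2:**
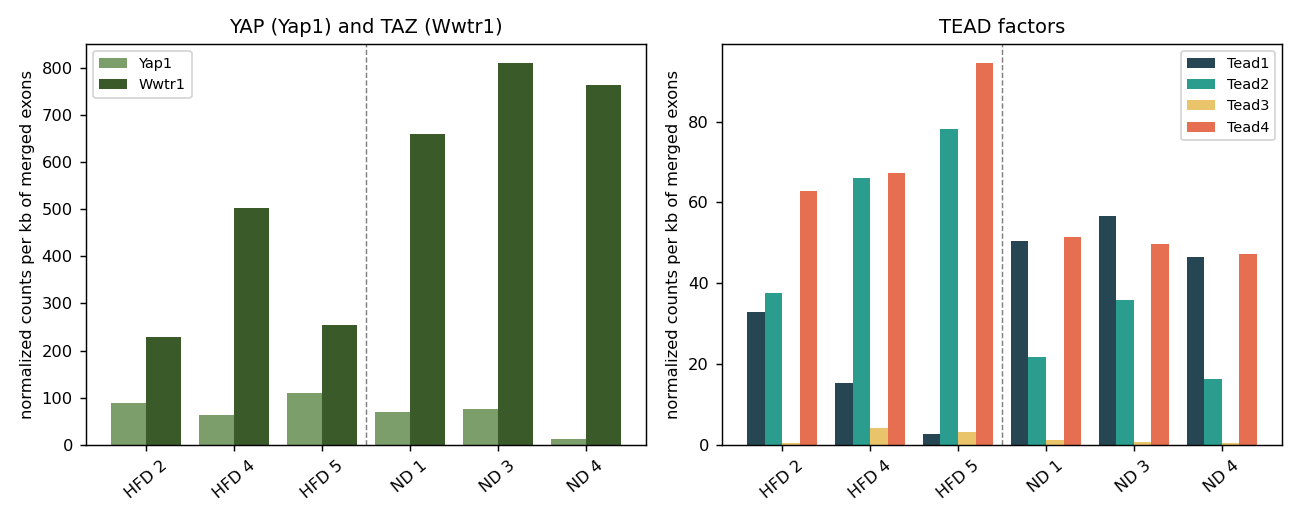
Normalized counts per kilobase of merged exons for Yap1 and Wwtr1 (left panel) and Tead1 to Tead4 (right panel), one cluster of bars per library, HFD left of the dashed line and ND right of it. Tead1 and Wwtr1 bars are lower in every HFD library than in every ND library, whereas Tead2 and Tead4 bars are higher in every HFD library.

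Ctgf, also named Ccn2, encodes a secreted matricellular protein and is the most used YAP-TAZ readout. It had 3.88, 12.1 and 12.2 normalized counts in HFD 2, HFD 4 and HFD 5, from 4, 15 and 17 reads, against 92.1, 65.2 and 83.2 in ND 1, ND 3 and ND 4, from 78, 61 and 70 reads. Every HFD value was far below every ND value. The means were 9.40 ± 4.78 in HFD and 80.2 ± 13.7 in ND (SD, n = 3 each), and the log2 fold change was −3.09 ± 0.81 (limma adjusted p = 0.472, unadjusted p = 0.00613). It was −3.23 without ND 3 and ranged from −3.33 to −2.61 when each library was left out. Ctgf lies on chromosome 10 from 24595442 to 24598683, and 23.2% of its exonic bases overlap the antisense transcript Gm15270. No source used here states whether counting used strand, so reads of the pair cannot be told apart. Even in ND its level per kilobase was 22.8 to 32.2, below that of Wwtr1 in the same libraries.

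Ctgf is also abundant in cells outside the endothelium, so markers were read beside it. The 10 mural markers summed to 602 to 1242 normalized counts in HFD and 1022 to 5709 in ND, with Acta2 and Actg2 at 0 reads in HFD 2, Actg2 at 0 reads in HFD 4 and Acta2 at 0 reads in ND 4. Of these 10, 7 had a log2 fold change below 0, and limma called 0. At an unadjusted p under 0.05 limma had 2 lower, Actg2 and Cnn1, against 2.36% of all tested genes. DESeq2 called both, at adjusted p of 0.0057 and 0.0062, and edgeR and limma-voom did not. For both, ND 4 lay among the HFD values, at 1.19 and 3.56 normalized counts. A different 2 were lower without overlap, against 5.93% of all tested genes. The pair without overlap, named after their values were seen, were Rgs5, with 218 to 581 normalized counts in HFD and 620 to 732 in ND, and Notch3, with 1.61 to 22.3 in HFD and 32.1 to 73.7 in ND. The 6 lymphatic endothelial markers were detected in every library and summed to 4846 to 15888 normalized counts in HFD and 14837 to 33508 in ND. Of these, 6 of 6 had a log2 fold change below 0. limma called 0, with 2 lower at an unadjusted p under 0.05, against 2.36% of all tested genes. DESeq2 called Pdpn, at an adjusted p of 2.38e-05, and edgeR and limma-voom did not. Lower without overlap were 2, against 5.93% of all tested genes. These were Lyve1, with 3779 to 5754 normalized counts in HFD and 7202 to 8014 in ND, and Pdpn, with 48.6 to 160 in HFD and 629 to 1475 in ND. The 10 fibroblast markers were detected in every library and summed to 470 to 4178 in HFD and 505 to 6942 in ND. Of the 10 endothelial markers 7 were higher and 3 lower in HFD, and limma called 0. At an unadjusted p under 0.05 limma had 3 higher and 0 lower, against 5.56% and 2.36% of all tested genes. Without overlap were 3 higher and 1 lower, against 8.12% and 5.93% of all tested genes. Of 11 tested epithelial markers 9 were lower and 2 higher in HFD, and limma called 0. At an unadjusted p under 0.05 limma had 1 lower, Hopx, against 2.36% of all tested genes. Hopx was also the 1 lower without overlap, with 223 to 389 normalized counts in HFD and 481 to 1182 in ND. The share of all tested genes was 5.93%. In bulk samples, fewer cells of a type and less RNA per cell cannot be told apart. The part of mural, lymphatic and epithelial cells in the Ctgf, Wwtr1 and Tead1 differences was not tested.

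**Figure D3:**
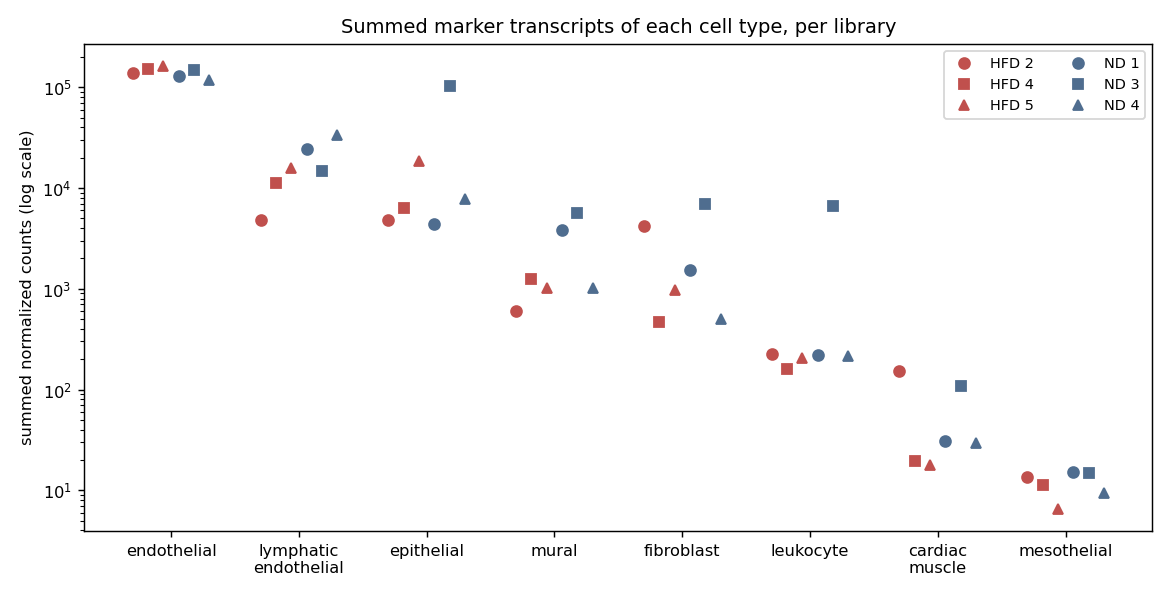
Summed normalized counts (log scale) of the markers of 8 cell types in each HFD library (red) and ND library (blue); symbols are mice. Endothelial sums lie at 118590 to 162153 in all 6 libraries, and ND 3 is highest for epithelial, mural, fibroblast and leukocyte markers.

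Cyr61, also named Ccn1, encodes the sister matricellular protein of Ctgf. It had 2232, 4897 and 5074 normalized counts in HFD 2, HFD 4 and HFD 5, against 1273, 3728 and 2640 in ND 1, ND 3 and ND 4. The diets overlapped, and the log2 fold change was 0.72 ± 0.49 (limma adjusted p = 0.747), or 0.28 without ND 1, 1.10 without HFD 2 and 1.06 without ND 3. Cyr61 and Ctgf thus had fold changes of opposite sign, a difference that was not tested. The per-kilobase ratio of Cyr61 to Ctgf was 814, 574 and 587 in HFD 2, HFD 4 and HFD 5, against 19.6, 81.0 and 45.0 in ND 1, ND 3 and ND 4. The ratio did not overlap between the diets, but it was not tested and in large part restates the Ctgf values. Those came from 4, 15 and 17 reads in HFD 2, HFD 4 and HFD 5.

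Ankrd1 encodes an ankyrin repeat protein best known from strained heart muscle. It had 131, 157 and 41.0 normalized counts in HFD 2, HFD 4 and HFD 5, against 0, 3.21 and 216 in ND 1, ND 3 and ND 4. The highest and the lowest value of all 6 libraries both came from ND mice. With 0 reads in ND 1, up to 3.54 normalized counts (3 reads) are allowed there, and such limits cover counting error only. The log2 fold change of 3.30 ± 1.92 (limma adjusted p = 0.700) was 1.66 without ND 1, 2.70 without ND 3 and 5.54 without ND 4, and edgeR gave 0.53, so its size was not settled by these libraries. Of 7 cardiac muscle markers 3 were in the table, and they summed to 18.0 to 151 normalized counts in HFD and 29.7 to 109 in ND. Of these, Tnnt2 had 136 normalized counts in HFD 2, against 3.54 to 5.35 in the other libraries, and Ryr2 had 10.5 to 91.9 over the 6 libraries. Nppa had 0 reads in HFD 2, HFD 5, ND 1 and ND 4, 6 in HFD 4 and 11 in ND 3. The part of heart muscle in the Ankrd1 values was not tested.

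Amotl2 encodes an angiomotin-like scaffold that binds YAP and is itself a target. It had 1340, 2857 and 1497 normalized counts in HFD 2, HFD 4 and HFD 5, against 1357, 3635 and 2757 in ND 1, ND 3 and ND 4. The diets overlapped, with the highest value in ND 3, and the log2 fold change was −0.42 ± 0.46 (limma adjusted p = 0.862), from −0.82 without ND 1 to −0.11 without ND 3. Nt5e encodes CD73, the surface enzyme that makes adenosine from AMP. It had 120, 98.2 and 40.3 normalized counts in HFD 2, HFD 4 and HFD 5, against 111, 451 and 284 in ND 1, ND 3 and ND 4. Only ND 1 lay among the HFD values, and the log2 fold change was −1.62 ± 0.75 (limma adjusted p = 0.644), or −1.17 without ND 3 and −2.18 without ND 1.

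**Figure D4:**
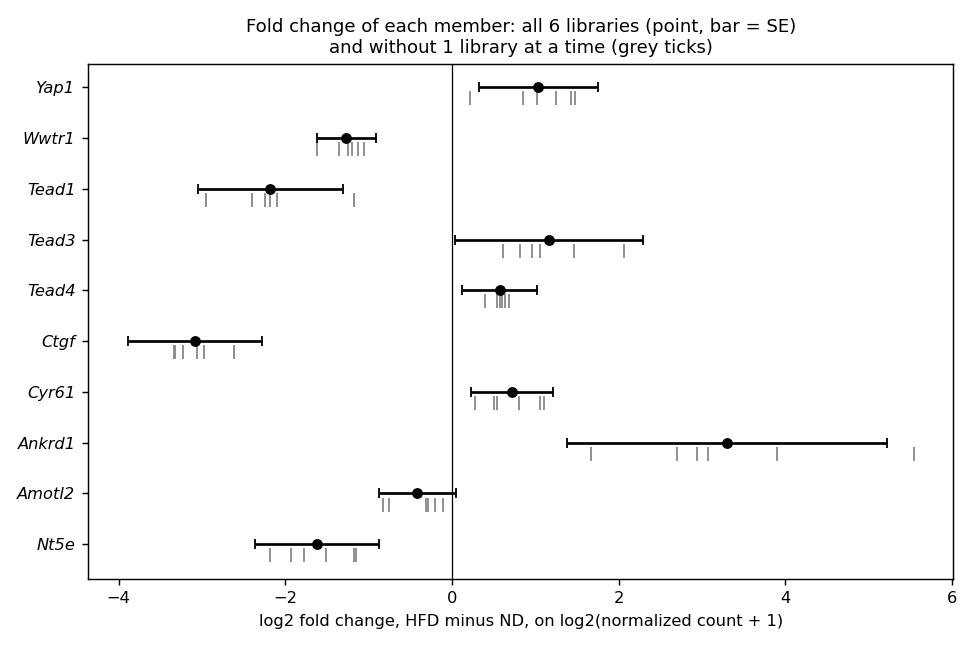
Log2 fold change, HFD minus ND, of each of the 10 genes on log2(normalized count + 1), with all 6 libraries (black point, bar = SE) and with each library left out (grey ticks). No tick crosses 0, Ctgf lies at −3.33 to −2.61 in the ticks, and those of Ankrd1 spread from 1.66 to 5.54.

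Ordered by median level per kilobase, Cyr61 came first with 631 to 2513 normalized counts per kilobase over the 6 libraries, followed by Wwtr1 with 228 to 810 and Amotl2 with 213 to 578. The ranges of these 3 neighbours overlapped. Yap1 followed with 13.2 to 111 and Tead4 with 47.2 to 94.5, then Tead1, Ankrd1, Ctgf and Nt5e. From Yap1 to Nt5e each gene overlapped the next, whereas Yap1 lay below every Amotl2 value. Tead3 was last, with 0.434 to 4.20, all below the lowest value of its neighbour Nt5e, 4.69. The variation among mice of one diet differed widely between members, with a log2 standard deviation within ND of 0.063 for Tead4 and 4.02 for Ankrd1.

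The Hippo kinases and upstream regulators gave no common direction. Of 21 tested genes 11 were higher and 10 lower in HFD, with a median log2 fold change of 0.15, against 0.05 over all tested genes. limma called 0 of them. At an unadjusted p under 0.05 there were 2 higher and 1 lower, against 5.56% and 2.36% of all tested genes. Without overlap were 2 higher and 3 lower, against 8.12% and 5.93% of all tested genes. Stk3, the kinase MST2 at the head of the cascade, had 2649, 1806 and 2293 normalized counts in HFD 2, HFD 4 and HFD 5, against 934, 1150 and 734 in ND 1, ND 3 and ND 4. Its diets did not overlap, and its log2 fold change was 1.27 ± 0.31 (limma adjusted p = 0.472), from 1.10 to 1.42 when each library was left out. DESeq2 called Stk3, at an adjusted p of 0.0178, and edgeR and limma-voom did not.

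Rassf1, a scaffold that binds the MST kinases, had a log2 fold change of 0.87 ± 0.32 (limma adjusted p = 0.570). Taok3, a kinase of the family that activates MST, had a log2 fold change of −1.60 ± 0.62 (limma adjusted p = 0.585), and both were without overlap between the diets. Wwc2, a relative of the scaffold KIBRA, had 1796 ± 301 normalized counts in HFD and 2301 ± 87.9 in ND, also without overlap (log2 fold change −0.37 ± 0.25). The LATS kinases, which phosphorylate YAP and TAZ directly, overlapped between the diets. Lats1 had 693 ± 507 normalized counts in HFD and 1148 ± 501 in ND, and Lats2, itself a target, had 2592 ± 454 in HFD and 2708 ± 1036 in ND. Of the exonic bases of Lats2, 42.4% overlap Gm49361, a protein-coding gene on the same strand. For Rassf1, 42.7% overlap the antisense transcript Gm9917. How reads in these stretches were counted is not stated. Nf2, which encodes merlin, had 451 ± 112 normalized counts in HFD and 405 ± 82.7 in ND. Of the Vgll proteins, which compete with YAP and TAZ for TEAD, Vgll4 had a log2 fold change of 0.38 ± 0.34 and Vgll3 one of 1.56 ± 1.94, which was −0.19 without HFD 5.

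A wider list of 22 YAP-TAZ targets, which includes the 5 above, had 21 tested genes, 9 of them higher in HFD and 12 lower. Its median log2 fold change was −0.42, against 0.05 over all tested genes, and limma called 0 of them, with 1 at an unadjusted p under 0.05. That gene was Ctgf, and 2.36% of all tested genes were lower at this level. Without overlap were 0 higher and 2 lower, namely Ctgf and Foxf2, against 8.12% and 5.93% of all tested genes. Foxf2, a forkhead transcription factor, had 0.971 to 1.61 normalized counts in HFD and 2.36 to 36.8 in ND, from 1 to 2 reads in each HFD library and 2, 18 and 31 reads in ND 1, ND 3 and ND 4. ND 1 had no more reads than HFD 4 and HFD 5, so its separation from them rests on the size factors. Axl, a receptor tyrosine kinase, had 122, 46.7 and 0.72 normalized counts in HFD 2, HFD 4 and HFD 5, against 549, 170 and 1.19 in ND 1, ND 3 and ND 4. Its log2 fold change of −1.45 ± 2.38 was 0.38 without HFD 5 and 0.16 without ND 1.

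Actin genes and immediate early genes were read beside the targets because actin tension acts on YAP and TAZ and because Cyr61 is also an early response gene. Of 13 tested genes of SRF and the actin cytoskeleton, 6 were higher and 7 lower in HFD. Actb, cytoplasmic β-actin, had 20547, 22884 and 20847 normalized counts in HFD 2, HFD 4 and HFD 5, against 27995, 30874 and 34873 in ND 1, ND 3 and ND 4. Its diets did not overlap, with a log2 fold change of −0.54 ± 0.14 (limma adjusted p = 0.472), and Actg1, γ-actin, had −0.44 ± 0.17, also without overlap. Both actins have processed pseudogenes, so their single values are uncertain. The tropomyosins Tpm1 and Tpm4 had log2 fold changes of 0.47 ± 0.23 and 0.59 ± 0.30, also without overlap. Of 13 tested immediate early genes 7 were higher and 6 lower, with a median log2 fold change of 0.0024. Among those of smallest p, Egr1 had −0.40 ± 0.16 without overlap between the diets and Fosb had −0.61 ± 0.29, while Dusp1 had 0.57 ± 0.33 and Ier2 0.55 ± 0.32. limma called 0 genes of either list, where 2 and 1 were lower at an unadjusted p under 0.05, against 2.36% of all tested genes. Without overlap were 2 higher and 2 lower of the actin list and 0 higher and 1 lower of the early list. The shares of all tested genes were 8.12% higher and 5.93% lower.

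The genes with the most similar pattern over the 6 libraries were found by the root mean square difference between centred log2 values, among the 10352 tested genes whose mean normalized count reached 50 and whose symbol was not a clone or predicted-gene name. For Ctgf these were Pdpn at 0.52, Prdm15 at 0.53, Nrip1 at 0.63, Nf1 at 0.64 and Per1 at 0.67 log2 units, against 1.62 for the deviation of Ctgf from its own mean. Pdpn, which was listed among the 6 lymphatic endothelial markers, had 48.6, 160 and 138 normalized counts in HFD 2, HFD 4 and HFD 5, against 629, 1475 and 1187 in ND 1, ND 3 and ND 4. Whether its reads came from lymphatic cells or from others, such as epithelium, was not tested. For Cyr61 the nearest were Tap1 at 0.13, Mgat1 at 0.15, Slc17a5 at 0.16, Mcf2l at 0.17 and Nt5c2 at 0.18 log2 units, against its own 0.70. For Ankrd1 they were Card6, Lrrc75a, Wdr41, Fggy and Wdr44, at 0.70 to 0.90 log2 units against its own 2.91. With 6 libraries and 10352 genes, some profiles must lie close, and the distances are descriptions.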

How the data were processed

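Libraries were made from 500 cells each by oligo(dT) priming, template switching and PCR, per the labels' protocols, which mention no molecular identifiers. The submitters' processing notes name HTSeq 0.6.1, TopHat2 2.0.10, DESeq2, Bowtie 1.0.0, FastQC 0.11.7, cutadapt, SAMtools 0.1.19 and the build GRCm38, with no role or order. No source used here states the gene annotation or strand setting. The authors deposited 1 table of normalized signal, namely gene counts divided by a size factor per library. Within each column 100% of values were whole multiples of 1 read within a tolerance of 1e-06, and 1 read was worth 0.720 to 1.19, so whole reads were recovered. No pair of libraries agreed within sampling noise (chi-square per degree of freedom 84.3 to 205), and each counted as 1 replicate. Columns were matched by diet and mouse number, and 0 columns were left out.

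The difference HFD minus ND was tested (two-sided) by limma 3.58.1 (R 4.3.3) on log2(value + 1), with an intensity trend, for genes with a mean of at least 10, with Benjamini-Hochberg adjustment at 0.05 over all 15655 genes. This scale can understate changes of low genes, as for Tead3, at 1.16 against 1.64 by edgeR and 1.69 by DESeq2. For Ankrd1, Tead1 and Yap1, whose libraries of 1 diet differed widely, it gave larger changes than edgeR and DESeq2. These were 3.30 against 0.53 and 0.59, −2.18 against −1.62 and −1.59, and 1.04 against 0.66 and 0.71. edgeR 4.0.16, DESeq2 1.42.0 and limma-voom were run on the recovered reads as alternatives. The fit was also run on simulated counts, where finding large changes was required only at a spread well below that of these data. How often it would find such changes at the spread of these data is not given here. Levels between genes used merged exons of GENCODE M21. Ctgf and Cyr61 were matched there as Ccn2 and Ccn1 through RefSeq synonyms. The members, lists, rules and tests were chosen with earlier results of these data known. Named were all members, the up to 4 genes of smallest p of each pathway list, Tead2, Lats1, Lats2, Nf2 and Axl, and the 5 genes nearest in pattern to Ctgf, Cyr61 and Ankrd1. Of each marker list the gene of highest mean could be named. Actg2, Cnn1, Nppa, Tnnt2, Ptprc, Csf1r, Cd68, Cd79a, Cd3e, Hopx, Rgs5, Notch3 and Lyve1 were chosen after their values were seen.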

Additional observations from a re-analysis of the deposited data

How the results depend on the processing

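All 188 refits of the 10 members' fold changes, 60 of them with 1 library left out, kept their direction. An adjusted p was given in 187 of them and was under 0.05 in 0, while DESeq2 gave none for Tead3. The number of members called was 0 in each. The number of all genes called was 0 in the main test, with 1240 at an unadjusted p under 0.05, 1 without the intensity trend and 315 by DESeq2 on whole reads, and 0 when any library was left out. Members without overlap between the diets numbered 4 with all libraries and 4 to 7 when each library was left out, with 7 without HFD 2, when Tead3, Cyr61 and Nt5e joined, and it was 5 with quantile normalization. The share of all tested genes without overlap was 14.1% with all libraries and 21.0% to 27.3% when each library was left out. Ctgf and Tead3 fell outside the stricter filter on a mean of 50, which left 3. Stk3 passed by DESeq2 alone, at a log2 fold change of 1.26. Among the other named genes, Lats2 had −0.0069 with all libraries, 0.0062 with TMM scaling and 0.042 with sample quality weights, and lay between −0.29 and 0.27 with a library left out. The range with a library left out was −0.042 to 0.31 for Nf2, −3.83 to 0.38 for Axl and −0.19 to 3.00 for Vgll3. The causes were not tested. Over all genes the median log2 fold change was 0.05, and it was −0.06 with equal column totals and with quantile normalization. Where a diet was left with 2 libraries, its spread was pooled with the other diet's. No paired analysis was possible because the diets share only the mouse number 4, which names different mice. Low read numbers limited Ctgf and Foxf2 in HFD and Tead3 in both diets, with 35 reads or fewer per library there.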
